A study of Homo sapiens with 10 samples.

Results

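The lysosome and autophagy genes described here are 35 genes of a table of 58735, taken by name. They fall into 7 classes. There are 6 lysosomal membrane proteins, 7 proteases, and 7 glycosidases and lipid hydrolases. A class of 3 holds a saposin precursor, an activator protein and progranulin. The rest are 3 subunits of the proton pump, 3 MiT/TFE transcription factors and 6 autophagy factors. Each name matched 1 row, and all 35 reached the level required for testing (1 FPKM or more in 2 or more libraries), as they also did in the DMSO libraries alone. RNA came from TPC-1 cells, an established papillary thyroid carcinoma line, in 5 groups of 2 biological replicates. The BLU667 group was parental TPC-1 cells kept for 24 h in 5 µM BLU667, which is pralsetinib and blocks the RET kinase. BR8, BR10 and BR16 were TPC-1 colonies raised in 5 µM BLU667 over more than 50 days by the sample labels, or more than 5 months by the series design, and each is a single colony. The DMSO group was parental TPC-1 cells given the solvent for 24 h. All groups carry the CCDC6-RET fusion.

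Lysosomes digest what endocytosis and autophagy deliver to them. A proton pump, the v-ATPase, acidifies their lumen, soluble hydrolases break down protein, glycan and lipid, and glycosylated membrane proteins line the limiting membrane. Many of these genes share a promoter element, the CLEAR motif, which the related factors TFEB, TFE3 and MITF bind. When nutrients are plentiful the kinase mTORC1 phosphorylates these factors at the lysosome and holds them in the cytoplasm, so a transcript level gives no reading of their activity.

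The CLEAR element has an E-box core, CACGTG, and its palindromic form is GTCACGTGAC. Both read the same on either strand, and the second contains the first. RefSeq promoters (GRCh38.p14, 250 bases before to 50 after each start) matched 26 of the 35 genes with 41 promoters. CACGTG was in 8 of these (19.5%), each of a different gene, against 7.26% of all 35116 RefSeq promoters and 17.4% of 121 promoters of other lysosome and autophagy genes. GTCACGTGAC was in 2 of the 41 (4.88%), against 0.353% of all promoters and 4.13% of those of the other genes. The 200 bases before the start of these 8 promoters are shown because they hold the CACGTG core of the CLEAR element. Capitals mark each match to CACGTG or GTCACGTGAC that lies whole within the 200 bases. They are LAMP1 (chr13:113297039-113297238, plus strand), CD63 (chr12:55729010-55729209, minus strand, 1 of several RefSeq promoters of the gene), MCOLN1 (chr19:7522424-7522623, plus strand), CTSA (chr20:45891135-45891334, plus strand), CTSD (chr11:1763928-1764127, minus strand), NEU1 (chr6:31862822-31863021, minus strand), GAA (chr17:80101381-80101580, plus strand) and ATP6V0D1 (chr16:67481158-67481357, minus strand).
LAMP1: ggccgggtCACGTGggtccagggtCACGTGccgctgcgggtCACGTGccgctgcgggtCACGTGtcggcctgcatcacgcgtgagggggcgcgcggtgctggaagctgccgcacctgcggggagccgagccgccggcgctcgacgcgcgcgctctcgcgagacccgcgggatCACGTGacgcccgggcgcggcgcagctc
CD63: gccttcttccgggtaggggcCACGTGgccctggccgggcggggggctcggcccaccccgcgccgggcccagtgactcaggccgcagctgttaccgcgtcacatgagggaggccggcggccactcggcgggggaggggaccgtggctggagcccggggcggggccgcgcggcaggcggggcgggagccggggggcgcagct
MCOLN1: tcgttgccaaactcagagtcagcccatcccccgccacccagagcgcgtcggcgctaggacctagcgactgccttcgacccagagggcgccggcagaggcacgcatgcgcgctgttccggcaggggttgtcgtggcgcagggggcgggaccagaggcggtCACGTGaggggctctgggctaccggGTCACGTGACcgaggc
CTSA: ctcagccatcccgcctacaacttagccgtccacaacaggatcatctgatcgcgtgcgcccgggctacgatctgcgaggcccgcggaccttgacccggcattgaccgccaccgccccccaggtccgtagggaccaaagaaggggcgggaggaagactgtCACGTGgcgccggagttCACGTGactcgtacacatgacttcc
CTSD: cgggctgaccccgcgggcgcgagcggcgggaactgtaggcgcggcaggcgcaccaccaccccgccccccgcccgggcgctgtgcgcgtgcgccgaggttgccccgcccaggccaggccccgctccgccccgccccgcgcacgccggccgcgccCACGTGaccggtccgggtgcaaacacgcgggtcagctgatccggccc
NEU1: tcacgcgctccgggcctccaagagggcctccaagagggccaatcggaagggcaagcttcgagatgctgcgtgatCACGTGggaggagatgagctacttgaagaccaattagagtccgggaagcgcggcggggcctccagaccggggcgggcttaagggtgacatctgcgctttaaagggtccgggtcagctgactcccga
GAA: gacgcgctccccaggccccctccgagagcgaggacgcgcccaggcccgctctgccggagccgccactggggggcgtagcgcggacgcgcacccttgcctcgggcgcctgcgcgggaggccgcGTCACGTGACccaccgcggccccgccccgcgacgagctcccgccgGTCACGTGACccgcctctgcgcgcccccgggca
ATP6V0D1: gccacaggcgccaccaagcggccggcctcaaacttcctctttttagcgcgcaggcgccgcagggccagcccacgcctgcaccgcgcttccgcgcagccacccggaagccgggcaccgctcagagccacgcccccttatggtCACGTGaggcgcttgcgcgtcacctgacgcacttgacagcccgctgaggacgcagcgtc
LAMP1 held 6 copies of CACGTG, the last of which crosses its start, and MCOLN1, CTSA and GAA held 2 each. Both copies in GAA and 1 of the 2 in MCOLN1 lie within GTCACGTGAC. A match is a description of letters and not a measured binding site. In BLU667 against DMSO, the comparison described next, 5 of the 8 genes with CACGTG were higher (LAMP1, CD63, CTSA, NEU1 and GAA), 2 were lower (CTSD and MCOLN1) and ATP6V0D1 was not called. Of the 18 genes with a promoter and no CACGTG in it, 12 were higher, 4 lower and 2 not called. Over all tested genes, 29.0% were higher and 31.2% lower. A relation of the motif to the calls was not tested.

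After 24 h of BLU667 most of these genes were higher than in DMSO. Of the 35 genes, 25 were higher, 6 lower and 4 not called, where 60.2% of the 13927 tested genes were called (29.0% higher, 31.2% lower). Calls were made at an adjusted p below 0.05 in limma, on log2(FPKM + 1), with 1 fit of all 10 libraries. The median change of the 35 genes was 0.64 on that log2 scale, and that of all tested genes was -0.01. The 35 genes were chosen with earlier results of these data known, so their excess over all tested genes is not independent support. Of the calls, 20 of the 25 higher and 3 of the 6 lower remained with each of the 10 libraries left out in turn. The colonies differed from DMSO in the same direction for many of them. In BR8, 20 genes were higher and 3 lower (51.3% of all tested genes were called, 24.0% higher and 27.3% lower). In BR10, 15 were higher and 3 lower (40.8% called, 19.2% higher and 21.5% lower). In BR16, 23 were higher and 2 lower (45.5% called, 21.9% higher and 23.6% lower). The summed FPKM of the 35 genes was 1870 and 1920 in BLU667, 1760 and 1700 in BR8, 1250 and 1290 in BR10, and 2060 and 2070 in BR16, against 988 and 957 in DMSO. The sum therefore lay above both DMSO libraries in all 8 other libraries. PSAP and LAPTM4A weigh most in it, with means of 729 and 294 FPKM in BLU667 against 220 and 149 in DMSO. The 4 comparisons share the DMSO libraries. In bulk RNA, fewer cells that express a gene and less of its RNA per cell cannot be told apart.

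**Figure D1:**
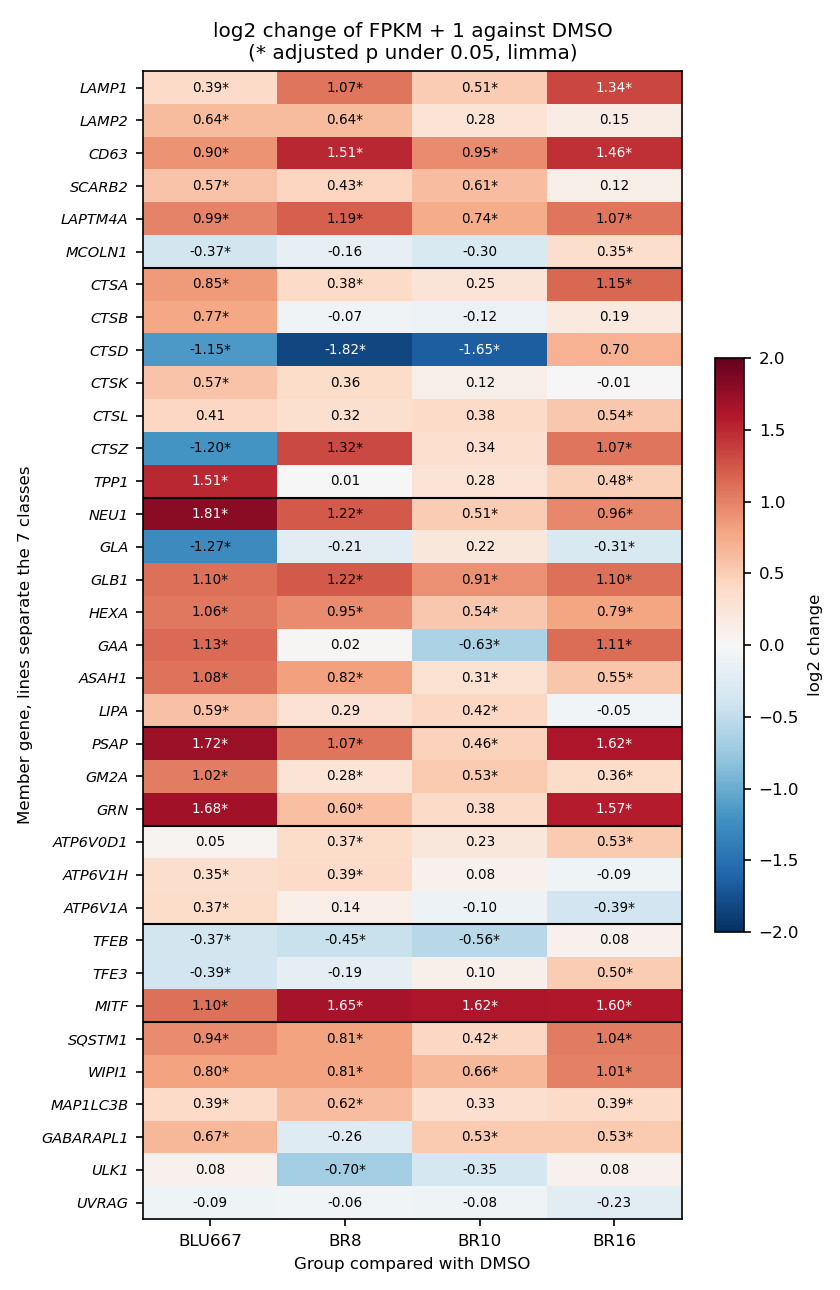
Change of each of the 35 genes (rows) in BLU667, BR8, BR10 and BR16 (columns) against DMSO, as the difference of log2(FPKM + 1), with red for higher and blue for lower. Asterisks mark an adjusted p below 0.05, and the 12 genes with red cells and asterisks in all 4 columns include MITF, PSAP, GLB1 and LAMP1.

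**Figure D2:**
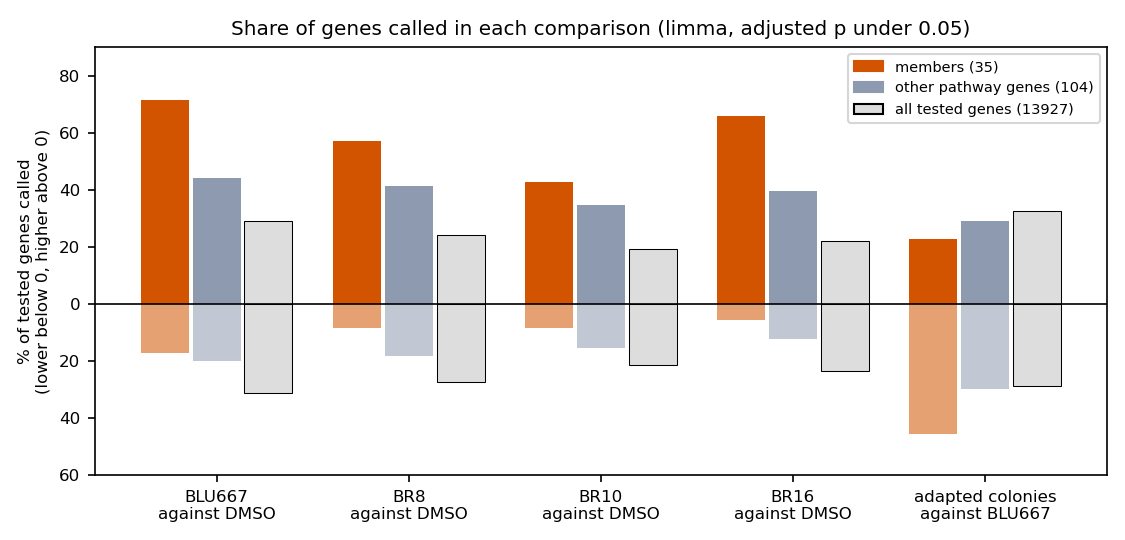
Percentage of genes called higher (bars above 0) and lower (bars below 0) in 5 comparisons, for the 35 genes, for 104 other tested lysosome and autophagy genes and for all 13927 tested genes. The bar of the 35 genes for higher calls stands above that of all tested genes in each of the 4 comparisons with DMSO, and their bar for lower calls does so in the comparison of the colonies with BLU667. The 35 genes and the other list were chosen with earlier results of these data known.

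The facts of the whole series that touch these values are few. Libraries held between 15243703 and 21904245 reads in genes, and replicates of a group correlated across genes at r = 0.978 to 0.989. The GC content of a gene moved with its values: across 13923 genes, the difference of the first and second DMSO library had a Spearman correlation of 0.62 with GC, that of the BR10 libraries -0.45, BR8 against BR16 -0.61 and BR10 against BR16 -0.53. The 35 genes span 37.3% to 64.2% GC, so values with each library's GC trend removed by loess are given where they add or end a call against DMSO or of the colonies' mean, or move such a called change by over 1.5 times. Among thyroid and epithelial markers, PAX8 (35.3 to 94.7 FPKM), KRT8, KRT18 and FOXE1 were present, and TG, TSHR, NKX2-1, KRT19, EPCAM and CDH1 stayed below 1 FPKM in every library. None of 8 leukocyte, 4 endothelial and 4 erythroid markers reached the filter. Of 6 fibroblast markers, 4 reached it, with COL1A2 and DCN at 0 in every library. Their summed FPKM was 24.6 to 27.9 in BLU667, 7.15 to 9.61 in BR8, 1.95 to 2.35 in BR10 and 3.33 to 3.84 in BR16, against 27.9 to 29.5 in DMSO, and the part of this in the results was not tested.

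Among the transcription factors, MITF had 3.22 and 3.77 FPKM in BLU667, 5.50 and 5.61 in BR8, 5.32 and 5.54 in BR10, and 5.22 and 5.49 in BR16, against 1.06 and 1.12 in DMSO. All 8 libraries exposed to the inhibitor lay above both DMSO libraries, and the 6 colony libraries lay above both BLU667 libraries. MITF rose by 1.10 ± 0.085 in BLU667 (log2 change ± SE, n = 2 per group; adjusted p = 1.30e-05, limma), 1.65 ± 0.085 in BR8 (2.68e-06), 1.62 ± 0.085 in BR10 (6.89e-06) and 1.60 ± 0.085 in BR16 (3.50e-06). The mean of the 3 colonies was 0.52 ± 0.069 above BLU667 (adjusted p = 2.82e-04), and also with 3 colony means used as replicates (0.0264). A difference among the colonies was not called (adjusted p = 0.884). MITF has several promoters, and the table does not separate its transcripts.

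The other two factors did not follow MITF. TFEB was near the floor of the table, at 1.09 and 1.18 FPKM in BLU667, 0.967 and 1.06 in BR8, 0.800 and 0.952 in BR10, and 1.77 and 2.08 in BR16, against 1.91 and 1.61 in DMSO. The libraries of BLU667, BR8 and BR10 lay below both DMSO libraries, and those of BR16 overlapped them. TFEB was lower in BLU667 (-0.37 ± 0.11, adjusted p = 0.0217), BR8 (-0.45, 0.0108) and BR10 (-0.56, 0.00565). The first call was lost without the first DMSO library (-0.29, 0.0939) or either BLU667 library (0.0840 and 0.0502), and the second without the first DMSO library (0.0507) or the first BR8 library (0.0548). With the GC trend removed, TFEB was called in BR10 (-0.40, 0.0135) and not in BLU667 (-0.22, 0.0984) or BR8 (-0.22, 0.10). TFE3 had 12.2 and 11.3 FPKM in BLU667, 13.4 and 13.8 in BR8, 15.6 and 18.4 in BR10, and 23.0 and 22.4 in BR16, against 18.5 and 13.3 in DMSO. Only BLU667 and BR16 stood clear of the DMSO range, below and above it. TFE3 was called lower in BLU667 (-0.39 ± 0.14, adjusted p = 0.0402) and higher in BR16 (0.50 ± 0.14, 0.0194). These changes were -0.22 (0.0440) and 0.30 (0.0160) with the GC trend removed, and BR10 was then called higher (0.35, 0.00860; 0.10, 0.60 without that step). The call in BLU667 was lost in 7 of the 10 fits that left out 1 library (those of DMSO replicate 1, both BLU667, both BR8 and both BR16 libraries; -0.17, 0.194 without the first DMSO library). That in BR16 was lost without the second DMSO library (0.28, 0.0679) or either BR16 library (0.0871 and 0.0742).

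**Figure D3:**
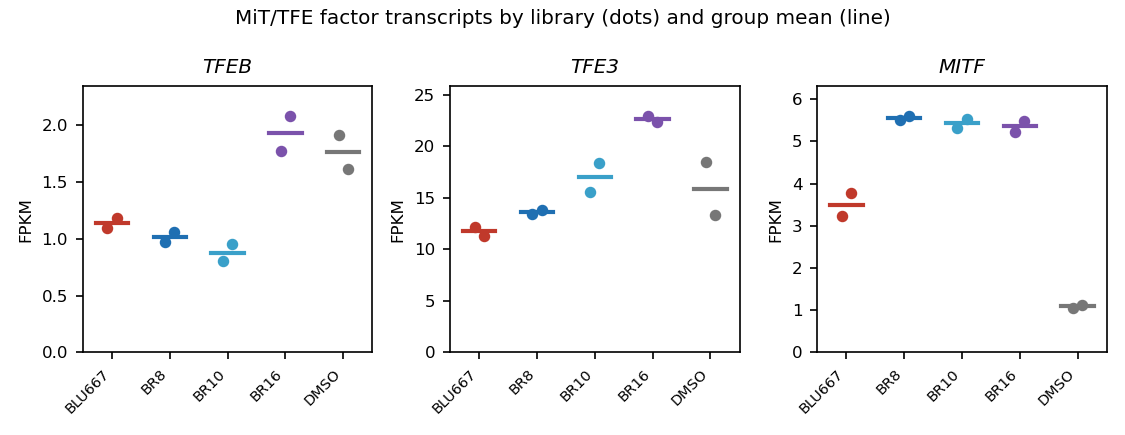
FPKM of TFEB, TFE3 and MITF in each library (dots) with the group mean (line), on linear axes that start at 0, for BLU667, BR8, BR10, BR16 and DMSO. MITF lies between 3.22 and 5.61 in the 8 exposed libraries and at 1.06 and 1.12 in DMSO, while TFEB lies below DMSO in BLU667, BR8 and BR10 and TFE3 lies above it in BR16 alone.

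On the log2(FPKM + 1) scale, the 4 largest rises in BLU667 were those of NEU1, PSAP, GRN and TPP1. These encode a sialidase, a saposin precursor, progranulin and a peptidase. Adding 1 understates the changes of low genes such as MITF, at a mean of 1.09 FPKM in DMSO. PSAP, the precursor of the saposins that present sphingolipids to their hydrolases, had 714 and 745 FPKM in BLU667, 478 and 447 in BR8, 295 and 311 in BR10, and 676 and 686 in BR16, against 225 and 216 in DMSO. No library of the exposed groups reached down to the DMSO libraries, and BR10 was the nearest to them. PSAP rose by 1.72 ± 0.079 in BLU667 (adjusted p = 7.72e-07), 1.07 in BR8 (1.90e-05), 0.46 in BR10 (0.00258) and 1.62 in BR16 (2.43e-06), and it had the highest mean FPKM of the 35 genes in every group. GRN encodes progranulin, which is secreted and is also cut into granulins in the lysosome. It had 117 and 119 FPKM in BLU667, 62.2 and 49.0 in BR8, 42.5 and 52.6 in BR10, and 109 and 110 in BR16, against 38.7 and 33.6 in DMSO. BLU667 and BR16 stood far above the rest, and BR10 lay closest to DMSO. GRN rose by 1.68 ± 0.14 in BLU667 (1.87e-05), 0.60 in BR8 (0.00724; 1.02, 2.67e-05 with the GC trend removed) and 1.57 in BR16 (5.12e-05). Its change of 0.38 in BR10 was not called (0.0578), and with the GC trend removed it was (0.73, 2.65e-04). GM2A, which lifts the ganglioside GM2 to hexosaminidase A, averaged 14.7 ± 0.19 FPKM in BLU667, 8.40 ± 0.087 in BR8, 10.2 ± 0.096 in BR10 and 8.99 ± 0.15 in BR16, against 6.80 ± 1.1 in DMSO (SD, n = 2 each). It was higher in BLU667 (1.02, 3.99e-05), BR10 (0.53, 0.00324), BR16 (0.36, 0.0151) and BR8 (0.28, 0.0417), but the BR8 call was lost in 9 of the fits that left out 1 library (0.13, 0.130 without the first DMSO library) and with the GC trend removed (0.19, 0.117). The BR16 call was lost without either BR16 library (0.0811 and 0.0643).

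Of the 7 glycosidases and lipid hydrolases, 6 were higher in BLU667 and GLA was lower. NEU1, the lysosomal sialidase, had 16.9 and 19.2 FPKM in BLU667, 12.6 and 10.8 in BR8, 6.16 and 7.33 in BR10, and 9.33 and 9.71 in BR16, against 4.23 and 4.62 in DMSO. Each exposed group lay above DMSO, and each colony lay below BLU667. NEU1 rose by 1.81 ± 0.11 in BLU667 (adjusted p = 3.81e-06), 1.22 in BR8 (5.75e-05), 0.51 in BR10 (0.00759; 0.0546 without the second BR10 library) and 0.96 in BR16 (2.40e-04). GLB1, the lysosomal beta-galactosidase, had 24.0 and 24.9 FPKM in BLU667, 25.8 and 27.5 in BR8, 20.3 and 22.4 in BR10, and 25.1 and 23.7 in BR16, against 11.0 and 10.7 in DMSO. All exposed libraries lay above DMSO, and the colonies differed among themselves (adjusted p = 0.0265, moderated F test), with BR10 the lowest. GLB1 rose by 1.10 ± 0.079 in BLU667, 1.22 in BR8, 0.91 in BR10 and 1.10 in BR16 (adjusted p from 8.71e-06 to 8.06e-05). The colonies were not called against BLU667 for GLB1 (-0.02 ± 0.065, 0.767), although with the GC trend removed a change of -0.15 was (0.0262). HEXA, the alpha subunit of hexosaminidase A, rose in each exposed group by 0.54 to 1.06. ASAH1, acid ceramidase, did so by 0.31 to 1.08, with the smallest change in BR10 (0.0303), where the call was lost without the first DMSO, either BR10 or either BR16 library (adjusted p up to 0.170). LIPA, the acid lipase that frees cholesterol from its esters, was higher in BLU667 (0.59, 0.00430) and BR10 (0.42, 0.0313). It was not called in BR8 (0.29, 0.0960), and was without the second DMSO library (0.50, 0.00201). The BR10 call of LIPA was lost without the first DMSO, either BR10 or either BR16 library (adjusted p up to 0.149).

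GAA and GLA did not follow these. GAA, the acid alpha-glucosidase that degrades glycogen, had 29.0 and 25.6 FPKM in BLU667, 14.5 and 9.99 in BR8, 6.80 and 7.87 in BR10, and 26.4 and 27.2 in BR16, against 13.4 and 10.5 in DMSO. BLU667 and BR16 lay far above DMSO, BR8 overlapped it and BR10 lay below. GAA rose by 1.13 ± 0.17 in BLU667 (6.22e-04) and 1.11 ± 0.17 in BR16 (0.00114), and was lower in BR10 (-0.63 ± 0.17, 0.0201). It was the 1 gene of the 35 with opposite calls in 2 colonies. The BR10 call was lost without the first DMSO library (-0.46, 0.104), without the first BR10 library (-0.54, 0.118) and with the GC trend removed (-0.14, 0.269), with which BR8 was called higher (0.57, 0.00128). GLA, alpha-galactosidase A, had 5.09 and 5.51 FPKM in BLU667, 11.4 and 12.9 in BR8, 16.8 and 16.5 in BR10, and 12.0 and 10.6 in BR16, against 14.4 and 13.9 in DMSO. BLU667 stood alone at the bottom. GLA fell by 1.27 on the log2 scale in BLU667 (SE 0.092, adjusted p = 9.16e-06), was not called in BR8 (-0.21, 0.0875; -0.28, 0.0143 with the GC trend removed) or BR10 (0.22, 0.0896), and was lower by a smaller amount in BR16 (-0.31, 0.0252), a call lost without the first DMSO library (0.0647) or the second BR16 library (-0.22, 0.179).

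The 7 proteases split. TPP1, a tripeptidyl peptidase, had 30.1 and 26.2 FPKM in BLU667, 9.78 and 8.82 in BR8, 11.5 and 11.5 in BR10, and 13.6 and 13.0 in BR16, against 8.13 and 10.5 in DMSO. BLU667 stood far above every other group. TPP1 rose by 1.51 ± 0.12 in BLU667 (1.63e-05) and 0.48 in BR16 (0.0120; 0.0696 without the first BR16 library), and was not called in BR8 (0.01, 0.979) or BR10 (0.28, 0.0959; 0.45, 0.0122 without the second DMSO library). CTSB, a cysteine protease, had 89.2 and 107 FPKM in BLU667, 53.6 and 54.8 in BR8, 51.9 and 52.9 in BR10, and 65.3 and 64.4 in BR16, against 60.8 and 53.2 in DMSO. It rose in BLU667 (0.77 ± 0.10, 2.96e-04) and was called in no colony against DMSO. The same held for CTSK, another cysteine protease, at 1.55 to 3.51 FPKM (0.57 in BLU667, 0.00801), whose call was lost without the second BLU667 library (0.40, 0.0584) and which was called in BR8 without either BLU667 library (0.36, 0.0429 and 0.0437). CTSA, a carboxypeptidase that also protects NEU1 and GLB1 from degradation, had 23.2 and 21.8 FPKM in BLU667, 16.5 and 15.5 in BR8, 14.2 and 14.9 in BR10, and 28.9 and 27.1 in BR16, against 13.3 and 10.9 in DMSO. It rose by 0.85 ± 0.10 in BLU667 (1.47e-04), 0.38 in BR8 (0.0130; 0.0729 without the first BR8 library; 0.75, 2.12e-05 with the GC trend removed) and 1.15 in BR16 (4.83e-05). In BR10 its change of 0.25 was not called (0.0786), and was with the GC trend removed (0.55, 2.04e-04) or without the first DMSO library (0.39, 0.0102). CTSL, at 18.5 to 34.5 FPKM, was called in BR16 (0.54, 0.0364), a call lost in 7 of the fits without 1 library (0.29, 0.191 without the second DMSO library). It was not called in BLU667 (0.41, 0.0758), and was without the first DMSO library (0.66, 0.00951) or with the GC trend removed (0.50, 0.0167).

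CTSD and CTSZ were lower in BLU667. CTSD, the main aspartic protease of the lysosome, had 27.3 and 19.1 FPKM in BLU667, 18.1 and 10.8 in BR8, 13.9 and 18.3 in BR10, and 87.2 and 82.8 in BR16, against 61.2 and 44.1 in DMSO. BLU667, BR8 and BR10 lay below both DMSO libraries, and both BR16 libraries lay above them. CTSD was lower in BLU667 (-1.15 ± 0.27, adjusted p = 0.00576), BR8 (-1.82, 7.11e-04) and BR10 (-1.65, 0.00185). In BR16 its change of 0.70 was not called (0.0619), and was without the first DMSO library (0.93, 0.0470) or without either BR8 library (0.0362 and 0.0363). The changes of CTSD with the GC trend removed were -0.90 in BLU667, -1.27 in BR8, -1.16 in BR10 and 0.44 in BR16 (0.0753). CTSZ, a carboxypeptidase of the cysteine class, had 30.8 and 33.2 FPKM in BLU667, 184 and 195 in BR8, 88.2 and 103 in BR10, and 159 and 158 in BR16, against 90.3 and 62.2 in DMSO. It was lower in BLU667 than in any other group and higher in BR8 and BR16 than in DMSO. CTSZ fell by 1.20 on the log2 scale in BLU667 (SE 0.16, 2.83e-04) and rose by 1.32 in BR8 (2.55e-04) and 1.07 in BR16 (9.26e-04). BR10 was not called (0.34, 0.126), and was without the first DMSO library (0.60, 0.00503) or with the GC trend removed (0.52, 0.00494).

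**Figure D4:**
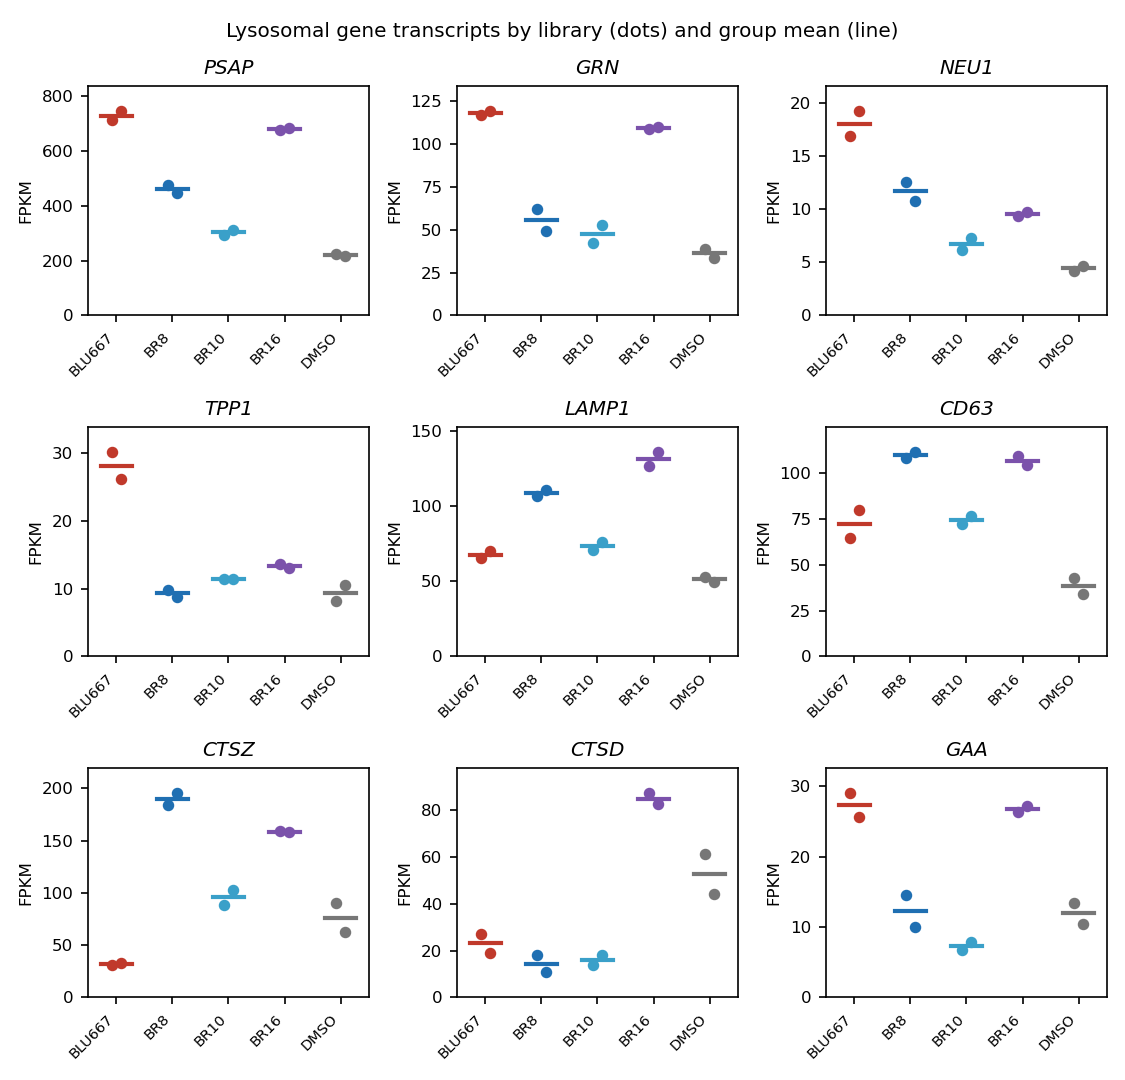
FPKM of PSAP, GRN, NEU1, TPP1, LAMP1, CD63, CTSZ, CTSD and GAA in each library (dots) with the group mean (line), on linear axes that start at 0, for BLU667, BR8, BR10, BR16 and DMSO. TPP1 is high in BLU667 alone (26.2 to 30.1), CTSZ is low in BLU667 alone (30.8 and 33.2), and PSAP, GRN and GAA are high in BLU667 and BR16.

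Of the 6 membrane proteins, 5 were higher in BLU667. LAMP1, an abundant glycoprotein of the limiting membrane, had 65.4 and 70.4 FPKM in BLU667, 107 and 111 in BR8, 71.2 and 76.4 in BR10, and 127 and 136 in BR16, against 53.3 and 49.8 in DMSO. All exposed libraries lay above DMSO, BR8 and BR16 stood well above BLU667, and BR10 lay just above it. LAMP1 rose by 0.39 ± 0.082 in BLU667 (0.00343), 1.07 in BR8 (2.22e-05), 0.51 in BR10 (0.00181) and 1.34 in BR16 (7.44e-06). CD63, a tetraspanin of late endosomes and lysosomes, had 64.7 and 79.7 FPKM in BLU667, 108 and 111 in BR8, 72.2 and 76.4 in BR10, and 109 and 104 in BR16, against 42.6 and 33.9 in DMSO, in the same order as LAMP1 but for the nearly equal BR8 and BR16. It rose by 0.90 ± 0.13 in BLU667 (4.50e-04), 1.51 in BR8 (4.07e-05), 0.95 in BR10 (8.11e-04) and 1.46 in BR16 (5.16e-05). LAPTM4A, a late endosomal and lysosomal membrane protein, had 302 and 287 FPKM in BLU667, 342 and 337 in BR8, 259 and 237 in BR10, and 312 and 314 in BR16, against 130 and 169 in DMSO, and rose by 0.99, 1.19, 0.74 and 1.07 in those 4 groups (adjusted p from 1.06e-04 to 0.00204). LAMP2, the receptor of chaperone-mediated autophagy in 1 of its forms, was higher in BLU667 (0.64, 0.00281) and BR8 (0.64, 0.00344). SCARB2, which carries glucocerebrosidase to the lysosome, was higher in BLU667 (0.57), BR8 (0.43) and BR10 (0.61). LAMP2 was also called in BR10 (0.23, 0.0449) and BR16 (0.33, 0.00787) with the GC trend removed, and without the second DMSO library (0.49, 0.00359 and 0.36, 0.0113). SCARB2 was called in BR16 (0.21, 0.0308) with the GC trend removed.

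MCOLN1, the cation channel that releases lysosomal calcium, was the exception. It had 2.04 and 2.18 FPKM in BLU667, 2.70 and 2.51 in BR8, 2.25 and 2.30 in BR10, and 4.17 and 4.10 in BR16, against 3.50 and 2.61 in DMSO. The calls were lower in BLU667 (-0.37 ± 0.11, 0.0190) and higher in BR16 (0.35, 0.0328). Neither was called with the GC trend removed (-0.16, 0.121 in BLU667 and 0.11, 0.299 in BR16). BR8 was not called (-0.16, 0.261), but was called higher with the GC trend removed (0.27, 0.0249) and lower without the second DMSO library (-0.32, 0.0199). The call in BLU667 was also lost without the first DMSO library (0.0785) or either BLU667 library (0.0850 and 0.0507), and the call in BR16 without the second DMSO library (0.133), either BR10 library or either BR16 library.

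The calls of the 3 pump subunits were small. ATP6V1A, the catalytic subunit of the cytosolic V1 sector, averaged 30.8 ± 0.31 FPKM in BLU667, 26.4 ± 3.3 in BR8, 22.1 ± 0.84 in BR10 and 17.9 ± 0.42 in BR16, against 23.8 ± 3.3 in DMSO (SD, n = 2 each). It was called higher in BLU667 (0.37, 0.0222) and lower in BR16 (-0.39, 0.0235). The first call was lost without the first DMSO library (0.104) or either BLU667 library, and the second without the second DMSO library (0.105) or either BR16 library. ATP6V1H, a regulatory V1 subunit, was called higher in BLU667 (0.35, 0.0334) and BR8 (0.39, 0.0261), and both calls were lost without the first DMSO library (0.148 and 0.102). The BLU667 call was also lost without the second BLU667 library or any library of BR10 or BR16, and the BR8 call without either BR8 library or with the GC trend removed (0.0621). ATP6V0D1, of the membrane sector, was higher in BR8 (0.37, 0.00676) and BR16 (0.53, 0.00131) and was not called in BLU667 (0.05, 0.624) or BR10 (0.23, 0.0635). With the GC trend removed its change was 0.62 in BR8 (7.63e-04) and 0.35 in BR16 (0.0156), and BR10 was called (0.40, 0.00942).

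Of the 6 autophagy factors, 4 were higher in BLU667, and ULK1 and UVRAG were not called there. SQSTM1, the receptor p62 that links ubiquitinated cargo to the autophagosome, had 66.4 and 59.7 FPKM in BLU667, 64.8 and 50.8 in BR8, 40.5 and 46.8 in BR10, and 67.5 and 67.7 in BR16, against 34.4 and 30.5 in DMSO. All exposed libraries lay above DMSO, with BR10 the nearest. It rose by 0.94 ± 0.13 in BLU667 (3.74e-04), 0.81 in BR8 (0.00121), 0.42 in BR10 (0.0341) and 1.04 in BR16 (3.59e-04). The BR10 call was lost without the second DMSO library (0.126), either BR10 library (0.0531 and 0.179) or either BR16 library. Reads over SQSTM1 are in part uncertain, since MGAT4B, at up to 46.1 FPKM, shares 105 of the 7654 exon bases of SQSTM1. MGAT4B lies on the other strand, and the libraries did not keep strand. WIPI1, which binds phosphatidylinositol 3-phosphate on the growing membrane, had 3.46 and 3.01 FPKM in BLU667, 3.28 and 3.26 in BR8, 2.62 and 3.07 in BR10, and 4.09 and 3.73 in BR16, against 1.57 and 1.30 in DMSO. Again no exposed library overlapped DMSO. WIPI1 rose by 0.80 ± 0.10 in BLU667 (2.56e-04), 0.81 in BR8 (3.52e-04), 0.66 in BR10 (0.00166) and 1.01 in BR16 (1.17e-04); it shares 828 exon bases with ARSG, which stayed at or below 1.11 FPKM. In all, 10 of the 35 genes share exon bases with another gene that reached 1 FPKM in some library.

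MAP1LC3B and GABARAPL1 encode ubiquitin-like proteins that are joined to the lipids of the autophagosome. MAP1LC3B, at 15.6 to 30.1 FPKM, was higher in BLU667 (0.39, 0.0330), BR8 (0.62, 0.00506) and BR16 (0.39, 0.0441). The BLU667 call was lost without the first DMSO library (0.19, 0.151), either BLU667 library or either BR16 library. The BR16 call was lost in 9 of the 10 fits without 1 library (0.18, 0.170 without the first DMSO library), and with the GC trend removed (0.30, 0.118). GABARAPL1 had 5.14 and 6.30 FPKM in BLU667, 2.13 and 2.93 in BR8, 5.13 and 5.05 in BR10, and 5.20 and 4.99 in BR16, against 3.91 and 2.62 in DMSO. BR8 was the 1 exposed group that did not stand above DMSO (-0.26, 0.217; -0.48, 0.0370 without the second DMSO library). GABARAPL1 was higher in BLU667 (0.67 ± 0.16, 0.00789), BR10 (0.53, 0.0328) and BR16 (0.53, 0.0292). The first call was lost without the second BLU667 library (0.0603), and the other two without the second DMSO library (0.152 and 0.161) or either library of the colony itself. The BR10 call was also lost without either BR16 library (0.0526) or with the GC trend removed (0.0506). ULK1, the kinase that starts autophagosome formation, had 6.07 and 7.04 FPKM in BLU667, 3.63 and 3.14 in BR8, 4.37 and 4.86 in BR10, and 6.38 and 6.67 in BR16, against 6.89 and 5.43 in DMSO. It was lower in BR8 (-0.70 ± 0.12, 0.00167), and with the GC trend removed it was not (-0.15, 0.214), while BLU667 was then called higher (0.34, 0.0118; 0.08, 0.582 without that step). UVRAG, a partner of Beclin 1, was at 2.63 to 3.86 FPKM and was called in none of the 4 comparisons. Without the first DMSO library it was called lower in BLU667 (-0.26, 0.0458) and BR16 (-0.39, 0.0113).

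Across the 4 comparisons with DMSO, 12 genes were higher in BLU667 and in each colony: LAMP1, CD63, LAPTM4A, NEU1, GLB1, HEXA, ASAH1, PSAP, GM2A, MITF, SQSTM1 and WIPI1. Of all tested genes, 7.44% (1036 of 13927) met the same condition. None of the 35 genes was lower in all 4. LAMP1, CD63, LAPTM4A, GLB1, HEXA, PSAP, MITF and WIPI1 met the condition in every fit that left out 1 library, which is 8 of the 12. Removing the GC trend left 15 genes that met it, where 9.36% of all tested genes did. Of the 15, 11 were among the 12 (GM2A was lost). By group means, 19 of the 35 genes were lowest in DMSO and 1 was highest there (UVRAG), 14 were highest in BLU667 and 10 in BR16. These positions were not counted over all tested genes, so the counts have no baseline.

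The colonies were then set against 24 h of BLU667, as the mean of the 3 colonies. This contrast sets the colonies' level after long exposure beside that of the first day, and both sides had the same dose of the inhibitor. BLU667 was the parental population and the others were single colonies, so length of exposure and colony cannot be told apart. Of the 35 genes, 8 were higher in the colonies, 16 lower and 11 not called, where 61.1% of all tested genes were called (32.4% higher, 28.7% lower). The median change was -0.19, and that of all tested genes was 0.03. Removing the GC trend gave 8 higher and 20 lower, where 66.0% of all tested genes were called. GLB1 (-0.15), SCARB2 (-0.22), ATP6V1H (-0.33) and SQSTM1 (-0.26) were newly called. Set singly against BLU667, BR8 was higher for 6 genes and lower for 11 (57.4% of all tested genes called, 30.0% higher and 27.4% lower), BR10 higher for 4 and lower for 15 (53.6%, 27.9% and 25.6%), and BR16 higher for 11 and lower for 12 (58.7%, 32.1% and 26.7%). Of the calls, 6 of the 8 higher and 9 of the 16 lower remained with each library left out in turn. Of the 25 genes that were higher in BLU667 than in DMSO, 15 were lower in the colonies than in BLU667, 7 were not called and 3 (LAMP1, CD63 and MITF) were higher still. The BLU667 libraries enter both comparisons, so genes picked as high in BLU667 are favoured to appear lower in the second. The same split was not counted over all tested genes.

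The colonies were lower than BLU667 for TPP1 (-1.25 ± 0.099, adjusted p = 1.53e-05), GAA (-0.97 ± 0.14, 4.72e-04), NEU1 (-0.91 ± 0.091, 5.67e-05), GRN (-0.83 ± 0.11, 3.26e-04), CTSB (-0.77 ± 0.084, 9.24e-05), PSAP (-0.67 ± 0.065, 4.57e-05) and GM2A (-0.63 ± 0.079, 1.97e-04). The smaller decreases of ASAH1 (-0.52) and ATP6V1A (-0.48) were kept in each fit without 1 library. Those of LAMP2, CTSA, CTSK, HEXA, LIPA, GABARAPL1 and ULK1 (-0.42 to -0.25) were not, in each case when 1 BLU667 library or another was left out. The mean covers unlike colonies: GAA was lower than BLU667 in BR8 (-1.11, 7.31e-04) and BR10 (-1.76, 7.65e-05), but its change in BR16 was not called (-0.02, 0.922; -0.53, 0.00154 with the GC trend removed). PSAP (-1.26, 7.33e-06) and GRN (-1.30, 1.19e-04) were lower in BR10 than in BLU667, but in BR16 their changes of -0.10 and -0.11 were not called (0.314 and 0.526). Those of BR16 were -0.35 (0.00338) and -0.56 (6.38e-04) with the GC trend removed. The genes higher in the colonies were CTSZ (2.11 ± 0.13, 4.10e-06), GLA (1.17 ± 0.075, 5.01e-06), LAMP1 (0.58 ± 0.067, 1.26e-04), TFE3 (0.53 ± 0.12, 0.00416), MITF (0.52), CD63 (0.41; 0.26, 0.119 without the first BLU667 library), MCOLN1 (0.34; 0.0865 without the first BLU667 library) and ATP6V0D1 (0.32, 0.00375). CTSZ, GLA, TFE3 and MCOLN1 are the 4 genes that were lower in BLU667 than in DMSO and higher in the colonies than in BLU667. Genes picked as low in BLU667 are likewise favoured to appear higher in the second comparison. This pattern was not counted over all tested genes. The lower calls of CTSZ and GLA were kept with each library left out in turn, and those of TFE3 and MCOLN1 were not. That of MCOLN1 was also lost with the GC trend removed. CTSZ exceeded BLU667 in each colony (2.53 in BR8, 1.54 in BR10 and 2.27 in BR16). Using the 3 colony means as replicates, a choice made after seeing the data, 7 of the 35 genes were called against BLU667 (CTSB, CTSZ, TPP1, NEU1, GLA, GM2A and MITF) and 26.3% of all tested genes.

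Against DMSO, the mean of the colonies was higher for 20 genes and lower for 3 (49.2% of all tested genes were called, 22.9% higher and 26.3% lower), with a median change of 0.38 against -0.03 over all tested genes. The largest were MITF (1.63 ± 0.069, 8.79e-07), CD63 (1.31 ± 0.11, 2.77e-05), GLB1 (1.08 ± 0.065, 5.35e-06), PSAP (1.05 ± 0.065, 6.39e-06) and LAPTM4A (1.00 ± 0.099, 8.91e-05). With the colony means as replicates 8 genes were called (11.1% of all tested genes), all higher: LAMP1, CD63, LAPTM4A, NEU1, GLB1, HEXA, MITF and WIPI1. Of the 20 higher calls, 17 remained with each library left out in turn (LAMP2, CTSL and MAP1LC3B did not). None of the 3 lower calls (CTSD -0.92, TFEB -0.31 and ULK1 -0.32) remained without the first DMSO library (adjusted p from 0.0869 to 0.212), and that of ULK1 was also lost with the GC trend removed (-0.06, 0.538). In that fit GAA (0.43, 0.00197) and TFE3 (0.26, 0.0106) were called higher and GLA lower (-0.17, 0.0431), which were not called before (0.17, 0.14 and -0.10).

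The 3 colonies differed from one another for 28 of the 35 genes (80.0%, moderated F test), where 58.1% of all tested genes differed. Removing the GC trend left 21, all of them among the 28, where 51.2% of all tested genes differed. MCOLN1, TPP1, LIPA, ATP6V0D1, ATP6V1A, TFEB and TFE3 were lost. The 7 not called in the first place were CTSB, CTSK, CTSL, GM2A, MITF, MAP1LC3B and UVRAG. The largest gap was that of CTSD, which was lower in BR8 and BR10 than in BR16 by -2.52 ± 0.27 (4.25e-04) and -2.35 ± 0.27 (5.35e-04). These were -1.72 (3.94e-04) and -1.61 (5.00e-04) with the GC trend removed. BR10 was also lower than BR16 for GAA (-1.74 ± 0.17, 3.08e-04; -0.99 with the GC trend removed), GRN (-1.19 ± 0.14, 5.96e-04; -0.60), PSAP (-1.17 ± 0.079, 6.56e-05; -0.98), CTSA (-0.90 ± 0.10, 4.85e-04; -0.38) and LAMP1 (-0.83 ± 0.082, 3.05e-04; -0.77). In all, BR10 was lower than BR16 for 17 of the 35 genes and higher for 3 (43.1% of all tested genes were called, 22.0% lower and 21.1% higher). The counts were 14 and 4 with the GC trend removed, and ULK1 turned its direction (0.33, 0.0246, against -0.42, 0.0231 without that step). BR8 was lower than BR16 for 12 and higher for 5 (48.6% called, 24.5% lower and 24.1% higher), against 7 and 5 with the GC trend removed, where ULK1 (-0.78), MCOLN1 (-0.51) and ASAH1 (0.27) were no longer called. BR8 was higher than BR10 for 10 and lower for 2 (22.8% called, 11.3% higher and 11.5% lower), among them CTSZ (0.99 ± 0.16, 0.00323), NEU1 (0.71 ± 0.11, 0.00277) and, lower, GABARAPL1 (-0.80 ± 0.16, 0.00991). Removing the GC trend gave 14 higher and 4 lower. The counts for pairs of colonies with the GC trend removed were not made over all tested genes, so they have no baseline.

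Beyond the 35 genes, 104 of 116 other lysosome and autophagy genes were tested. In BLU667 against DMSO, 46 were higher, 21 lower and 37 not called (64.4% called, against 60.2% of all tested genes), with a median of 0.15. The share called was 66.7% of other hydrolases, 86.7% of other membrane and sorting proteins, 53.8% of other pump subunits, 57.1% of other autophagy genes and 64.3% of genes of mTORC1 control. By list, 14 of 27 other hydrolases were higher and 4 lower, 10 of 15 other membrane and sorting proteins were higher and 3 lower, 5 of 13 other pump subunits were higher and 2 lower, 10 of 35 other autophagy genes were higher and 10 lower, and 7 of 14 genes of lysosomal mTORC1 control were higher and 2 lower. The hydrolases CTSO (1.98), LGMN (1.53) and SMPD1 (1.50, acid sphingomyelinase), the membrane protein LAPTM4B (1.38), the pump subunit ATP6V0E1 (1.40), the autophagy receptor OPTN (1.71) and the Rag GTPase RRAGB (1.71) rose most in their lists. NPC1, which exports cholesterol from the lysosome, averaged 11.4 ± 1.5 FPKM in BLU667, against 59.8 ± 2.6 in DMSO (SD, n = 2 each), and was lower by -2.30 ± 0.094 on the log2 scale (4.55e-07). LAPTM5 (-2.08), the mitophagy receptor BNIP3 (-1.43) and MTOR (-0.94) were also lower.

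In the colonies against DMSO, 40 of the 104 genes were higher and 13 lower (51.0% called, against 49.2% of all tested genes), with a median of 0.08, and 15 of the 27 other hydrolases were higher and 1 lower. OPTN (1.88), CTSO (1.78) and FUCA1 (1.69) were higher, and LAPTM5 (-4.03), NPC1 (-1.74), BNIP3L (-1.43) and BNIP3 (-1.19) were lower. LAPTM5 averaged 1.57 ± 0.085 FPKM in BR8, 13.7 ± 0.014 in BR10 and 1.20 ± 0.46 in BR16, against 70.6 ± 13 in DMSO. Against BLU667 the colonies were higher for 30 of the 104 and lower for 31, with a median of -0.01 (58.7% called, against 61.1% of all tested genes). SMPD1 (-1.72), LAPTM4B (-1.43), ATP6V0E1 (-1.32), LGMN (-1.24) and RRAGB (-1.04), which had risen in BLU667, were lower in the colonies than in BLU667. CTSV (1.69), GUSB (0.99, the lysosomal beta-glucuronidase) and MTOR (0.91) were higher. The changes named here for genes beyond the 35 kept their call with each library left out in turn and with the GC trend removed.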

How the data were processed

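RNA-seq was run on 10 libraries of TPC-1 cells: total RNA, a GlobinClear step and a non-directional NEB library, according to the labels' protocols. The submitters' processing notes name CASAVA, STAR 2.5, HTSeq 0.6.1, DESeq2 (version given as 2) and GRCh38 (hg38); no source used here names the annotation release. The authors deposited FPKM and gene length for 58735 genes. Multiplying both back gave whole reads for 100% of values (within 0.05); a voom fit on these reads served as an alternative.

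limma 3.58.1 (R 4.3.3) tested 13927 genes that reached 1 FPKM in 2 or more libraries. One model of the 5 groups (5 residual degrees of freedom, trended variance) was fitted to log2(FPKM + 1), with 2-sided moderated tests, Benjamini-Hochberg adjustment over all those genes and a threshold of 0.05. Adding 1 understates the changes of low genes. The SE of the colony mean reflects libraries, not colonies. The median SE was 0.124 for a comparison of 2 groups, and p-values measure the spread between these replicates. Members and lists were chosen with earlier results of these data known. Values per library are printed for the MiT/TFE factors and for the called genes with the largest changes in their class; up to 3 other pathway genes per list and direction may be named. All 35 genes had the same start and end in GENCODE 29, which gave GC content and exon overlaps; GC trends were removed with loess (span 0.3). The fit was tested on simulated data without GC trends, so that test does not cover the GC trends seen here. Figures came from matplotlib 3.10.9 under Python 3.11.15. Alternatives were pseudocounts of 0.1 and 0.25, no filter, 5 FPKM as the minimum, median-of-ratios scaling, quantile normalization, a replicate block, voom, GC trends removed, only the groups compared, an absolute log2 change of at least 1, and each library left out; colony means as 3 replicates, and GC removal with the replicate block, were added after seeing the data.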

Additional observations from a re-analysis of the deposited data

Results flagged for a closer look

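GAA had opposite calls in 2 colonies. It was lower in BR10 against DMSO (-0.63, adjusted p = 0.0201) and higher in BR16 against DMSO (1.11, 0.00114), and the difference tested directly, BR10 against BR16, was -1.74 on the log2 scale (3.08e-04, limma). With each library's GC trend removed, that difference was -0.99 (2.35e-04), and BR10 against DMSO was not called (-0.14, 0.269). GAA has 64.1% GC.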

How the results depend on the processing

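With an absolute log2 change of at least 1 required, the members called were 13 (BLU667 against DMSO; 20.0% of all tested genes), 9 (BR8; 14.5%), 2 (BR10; 8.80%), 12 (BR16; 11.6%), 5 (adapted colonies against DMSO; 8.92%) and 3 (adapted colonies against BLU667; 13.3%). Fitting only the groups compared left 24 members for BLU667 against DMSO (47.2% of all tested genes). For the colonies against DMSO it left 17 in BR8 (35.6%), 11 in BR10 (23.9%) and 17 in BR16 (33.3%). It kept 8 of the 12 genes higher in BLU667 and in each colony (4.51% of all tested genes). With colony means as 3 replicates, chosen after seeing the data, 8 were called against DMSO (11.1% of all tested genes) and 7 against BLU667 (26.3%). Leaving out 1 library gave 23 to 31 members for BLU667, 19 to 27 for BR8, 13 to 21 for BR10, 17 to 26 for BR16, 20 to 25 for the colonies against DMSO, 17 to 26 against BLU667, 18 to 31 among the colonies (18 without BR8 replicate 1 or BR16 replicate 1) and 8 to 13 higher in all 4 comparisons; a lone library was assumed to vary like the other groups. The share of all tested genes called fell as well when a library of BLU667 or of the compared colony was left out. A lower count there is therefore not particular to the 35 genes. Removing GC trends turned the direction of MCOLN1 in BR8 (0.27, and 0.27 with the replicate block as well). Same-numbered replicates deviated together at correlations of -0.16 to 0.11 over 10 pairs of groups. The GC trends of single libraries enter these deviations, so the correlations cannot tell whether same-numbered libraries shared a preparation. With the replicate block the counts were 30 for BLU667 (58.5% of all tested genes) and 22 for BR8 (48.8%). They were 18 for BR10 (37.9%) and 24 for BR16 (43.0%), and 22 (46.7%) and 23 (59.3%) for the colonies against DMSO and BLU667. Among the colonies 27 were called (54.3%), and 11 genes were higher in all 4 (6.84%). Of the changes of single genes under all alternatives, 4073 kept direction and side of the threshold, 261 lost the call and 108 gained it; the cause was not tested. The lowest read count of any of the 35 genes in a library was 50 (CTSK), and each group has 2 libraries.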
